A study of Mus musculus with 8 samples.

Results

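Erythroid progenitor genes were described in RNA from splenic T cells. The set holds 10 genes of stem, progenitor and red cell lineages (Kit, Epor, Tfr2, Gata1, Gata2, Tal1, Klf1, Gfi1b, Ermap and Car1), taken by symbol from the 24421 genes counted, and all 10 were found and passed the filter on low counts. The samples were naive CD4+ T cells isolated with a kit from the spleens of male C57BL/6 mice aged 6 to 8 weeks. There were 4 libraries titled E1KO, standing for Pcbp1 fl/fl mice that carry Cre under the Cd4 promoter, and 4 titled E1WT, standing for Pcbp1+/+ mice. PCBP1, also named hnRNP E1, is an RNA-binding protein, and Cd4-Cre recombines floxed genes in developing thymocytes. The genotype field states the opposite of the title in all 8 samples and gives Cd4-Cre to the wild-type group as well. Libraries are therefore named by title. The members were selected on their CPM in these libraries, higher under the E1KO title, so their differences are described without a test. CPM is the counts-per-million value of a gene, over all gene counts of the library.

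Red cells form from multipotent progenitors that pass through committed, fast-dividing erythroid progenitors before they make haemoglobin. KIT, the receptor for stem cell factor, and the erythropoietin receptor keep these progenitors alive. GATA2 acts early and GATA1 takes over from it, and GATA1 works in complexes with TAL1 at sites where KLF1, which binds CACCC elements, often acts too. In mice the spleen is a site of red cell formation, above all under stress. Naive T cells use other members of the same families, such as GATA3 and KLF2.

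The libraries held 28264655 to 36738202 gene counts. Pcbp1, the targeted gene, stood at 38.8 to 42.4 CPM in libraries titled E1KO and at 196 to 240 CPM in those titled E1WT. Its level thus fits the title of each library and not the genotype field. The labels give male animals throughout, yet Xist, the RNA of the inactive X chromosome, stood at 378 to 433 CPM in E1KO and 0.544 to 2.82 CPM in E1WT. The Y-linked gene Ddx3y stood at 52.7 to 59.1 CPM in E1KO and 101 to 111 CPM in E1WT. A difference between the titles cannot be told apart from this sex-linked signal, and Gata1 itself lies on the X chromosome. Among defining T cell genes, Cd4 averaged 869 ± 20.6 CPM in E1KO and 1001 ± 27.7 CPM in E1WT (SD, n = 4 each).

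The 250 bases before the members' RefSeq starts (GRCm38.p6) were searched on both strands for letters that the lineage's own factors are known to bind. RefSeq windows were matched for 9 of the 10 members, Car1 being the one without. The GATA letters, which are AGATAA or the same with T as the first base, G as the last base or both, stood in a window of 6 members, Epor, Ermap, Gfi1b, Klf1, Tal1 and Tfr2, against 29.7% of all 27025 genes. CACCC stood in a window of all 9, against 54.5% of all genes, and the E-box letters CANNTG in 4 of 9, against 69.3%. Counted per window, over all 32851 windows, the shares were 26.5% for the GATA letters, 52.0% for CACCC and 66.2% for the E-box letters. The 6 members with GATA letters also held CACCC, a pairing found in 13.5% of all genes. Matches of different motifs were counted apart and may overlap. A gene was counted if any of its windows matched, and several members had more than 1 window, which gives more chances of a match. Of the 6, 5 windows are shown to let the surroundings of the match be read, leaving out the Tfr2 window, which lies wholly within the annotated gene. They run 5′ to 3′ on the gene's strand up to a RefSeq start, with the match in capitals, written as TTATC where the GATA letters lie on the other strand.
Epor: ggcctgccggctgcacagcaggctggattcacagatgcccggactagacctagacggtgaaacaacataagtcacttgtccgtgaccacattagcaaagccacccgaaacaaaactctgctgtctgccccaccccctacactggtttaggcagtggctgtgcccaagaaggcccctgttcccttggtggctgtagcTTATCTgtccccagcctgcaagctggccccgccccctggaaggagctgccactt
Klf1: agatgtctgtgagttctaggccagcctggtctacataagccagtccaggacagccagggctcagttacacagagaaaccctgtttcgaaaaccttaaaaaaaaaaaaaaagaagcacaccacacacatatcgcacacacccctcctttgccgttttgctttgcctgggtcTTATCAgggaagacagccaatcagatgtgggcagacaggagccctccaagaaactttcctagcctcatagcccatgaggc
Gfi1b: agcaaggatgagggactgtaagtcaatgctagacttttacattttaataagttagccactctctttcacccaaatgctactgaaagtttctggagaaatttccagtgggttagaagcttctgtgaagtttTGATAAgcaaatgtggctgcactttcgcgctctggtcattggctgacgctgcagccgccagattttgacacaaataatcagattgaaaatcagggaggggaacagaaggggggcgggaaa
Ermap: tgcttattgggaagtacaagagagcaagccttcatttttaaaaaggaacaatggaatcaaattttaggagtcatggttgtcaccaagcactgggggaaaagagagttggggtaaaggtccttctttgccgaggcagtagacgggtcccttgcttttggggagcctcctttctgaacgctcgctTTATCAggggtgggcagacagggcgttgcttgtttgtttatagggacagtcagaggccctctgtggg
Tal1: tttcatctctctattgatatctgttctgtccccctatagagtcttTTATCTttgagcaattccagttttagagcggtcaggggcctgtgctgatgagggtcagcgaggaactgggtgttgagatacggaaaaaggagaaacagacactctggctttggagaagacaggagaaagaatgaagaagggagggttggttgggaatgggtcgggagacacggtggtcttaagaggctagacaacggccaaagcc

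These windows lie at chr9:21963577-21963826 (minus strand, Epor), chr8:84901732-84901981 (plus, Klf1), chr2:28621983-28622232 (minus, Gfi1b), chr4:119189996-119190245 (minus, Ermap) and chr4:115056176-115056425 (plus, Tal1). The Klf1 and Ermap windows reach partly into the annotated gene. The match began 54 bases before the start in Epor, 67 in Ermap, 80 in Klf1, 120 in Gfi1b and 205 in Tal1. The windows of Kit, Gata1 and Gata2 held no GATA letters. A match describes letters and is no measured binding.

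All 10 members were higher in every E1KO library than in any E1WT library. Across all 13333 genes tested, 18.7% showed the same separation in that direction and 8.44% the opposite one. Nothing is read from this count, since the members were chosen by the same contrast. The median log2 fold of the members, E1KO over E1WT from mean CPM, was 1.37, against 0.07 over all tested genes. It was 1.32 to 1.47 when any 1 library was left out, and highest without E1WT 2. Summed over the 10 members the level was 304 ± 7.64 CPM in E1KO and 115 ± 6.31 CPM in E1WT (SD, n = 4 each), a 2.64-fold difference. More cells of a type and more of this RNA per cell cannot be told apart in bulk samples.

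**Figure D1:**
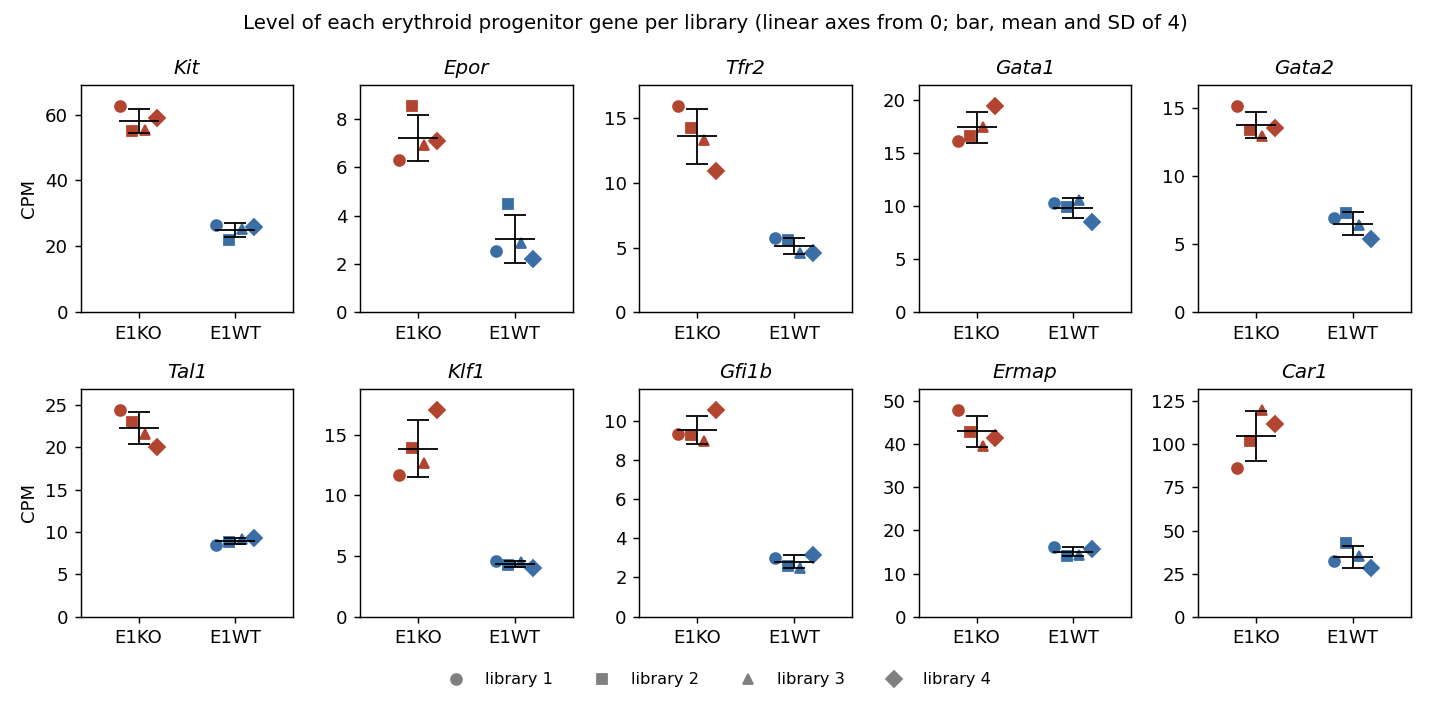
CPM of each member in each library, on linear axes from 0, with E1KO left of E1WT, 1 symbol per replicate number, and black bars for the mean and SD of 4. In all 10 panels the E1KO points lie above the E1WT points, with the closest approach in Epor, where E1KO 1 had 6.29 CPM and E1WT 2 had 4.46 CPM.

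Among the receptors, Kit on chromosome 5 (75574916 to 75656722) encodes the stem cell factor receptor, a tyrosine kinase. It had 62.7, 54.9, 55.4 and 59.1 CPM in E1KO libraries 1 to 4, against 26.5, 22.1, 25.4 and 26.03 CPM in E1WT libraries 1 to 4. The lowest E1KO library was 2.07 times the highest E1WT library, and the ratio of the means was 2.32 (log2 1.21 ± 0.07, SE). Epor (chromosome 9, 21958897 to 21963506) encodes the erythropoietin receptor. It had 6.29, 8.54, 6.92 and 7.10 CPM in E1KO, against 2.55, 4.46, 2.86 and 2.21 CPM in E1WT. E1WT 2 was the high library of its title, so Epor had the widest spread of any member (coefficient of variation 33.01% in E1WT). Its log2 ratio was 1.26 ± 0.24 (SE) and reached 1.51 without E1WT 2. Tfr2 (chromosome 5, 137569840 to 137587481), transferrin receptor 2, senses iron-loaded transferrin and is made in erythroid precursors and liver. It had 16.0, 14.2, 13.3 and 10.9 CPM in E1KO, against 5.73, 5.58, 4.59 and 4.57 CPM in E1WT. E1KO 4 was the low library and still stood 1.90 times above the highest E1WT library.

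Among the transcription factors, Gata1 (chromosome X, 7959260 to 7978071) is the master regulator of red cell and platelet precursors. It had 16.2, 16.7, 17.5 and 19.5 CPM in E1KO, against 10.3, 9.96, 10.6 and 8.48 CPM in E1WT. The groups did not overlap, but the log2 ratio of 0.83 ± 0.09 (SE) was the smallest of the 10. Gata2 (chromosome 6, 88193891 to 88207032), its relative in stem cells and early progenitors, had 15.1, 13.4, 12.96 and 13.5 CPM in E1KO, against 6.93, 7.29, 6.42 and 5.39 CPM in E1WT. Its log2 ratio, 1.08 ± 0.11, was next to that of Gata1 and larger by more than their combined standard error. Tal1 (chromosome 4, 115056426 to 115071755), a basic helix-loop-helix factor needed for blood formation, had 24.4, 23.0, 21.6 and 19.999 CPM in E1KO, against 8.42, 8.79, 9.14 and 9.27 CPM in E1WT. It was the steadiest member within E1WT, with a coefficient of variation of 4.27%.

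Klf1 (chromosome 8, 84901928 to 84905291), which switches on adult globin and other late red cell genes, had 11.6, 13.9, 12.7 and 17.1 CPM in E1KO, against 4.56, 4.22, 4.48 and 4.02 CPM in E1WT. E1KO 4 was its high library, and the ratio of the means was 3.20 (log2 1.68 ± 0.13). Gfi1b (chromosome 2, 28609450 to 28621982), a zinc finger repressor of red cell and platelet precursors, had 9.30, 9.29, 8.96 and 10.6 CPM in E1KO, against 3.01, 2.59, 2.50 and 3.14 CPM in E1WT. With a ratio of 3.39 (log2 1.76 ± 0.10) it showed the largest difference of the 10, and its lowest E1KO library was 2.85 times its highest E1WT library.

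Ermap (chromosome 4, 119175457 to 119190011) encodes the red cell membrane protein that carries the Scianna blood group in humans. It had 48.0, 42.8, 39.6 and 41.6 CPM in E1KO, against 16.2, 14.1, 14.3 and 15.6 CPM in E1WT, and E1KO 1 was its high library. Car1 (chromosome 3, 14766216 to 14808368), carbonic anhydrase 1, is an abundant red cell enzyme that mouse erythroid progenitors already make. It had 86.1, 102, 120 and 112 CPM in E1KO, against 32.3, 42.8, 35.1 and 27.9 CPM in E1WT, and its library of lowest level in E1KO was still 2.01 times the highest in E1WT. No other annotated gene shares exon bases with any of the 10.

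The ordered log2 ratios ran Gfi1b, Klf1, Car1, Ermap, Tfr2, Tal1, Epor, Kit, Gata2 and Gata1. Neighbours from Gfi1b down to Kit lay closer than their combined standard errors, and only Kit over Gata2 and Gata2 over Gata1 were further apart. Divided by the summed level of the 10 in the same library, the share of 8 members overlapped between the titles. The exceptions were Gata1, at 5.74% ± 0.354 of the sum in E1KO and 8.54% ± 0.575 in E1WT, and Klf1, at 4.55% ± 0.696 in E1KO and 3.76% ± 0.207 in E1WT (SD, n = 4 each). For Klf1 the titles nearly met, with a lowest share of 3.93% in E1KO and a highest of 3.91% in E1WT. Car1 made up 34.5% ± 4.104 of the sum in E1KO and 29.9% ± 3.91 in E1WT.

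Per kilobase of exon, Car1 was far above the rest, at 84.1 ± 11.7 CPM per kb in E1KO and 27.7 ± 4.998 in E1WT (SD, n = 4 each). The other 9 members lay between 2.55 (Gata2) and 9.04 (Klf1) CPM per kb in E1KO and between 1.18 (Tfr2) and 4.04 (Gata1) in E1WT. In E1KO the order was Car1, Klf1, Ermap, Gata1, Kit, Gfi1b, Tal1, Epor, Tfr2, Gata2, and the neighbours Klf1 and Ermap, Gata1 and Kit, Gfi1b and Tal1, and Epor and Tfr2 did not differ beyond their spread. The E1WT order was Car1, Gata1, Ermap, Klf1, Kit, Tal1, Gfi1b, Epor, Gata2, Tfr2, and neighbours from Ermap to Kit and from Gfi1b to Tfr2 did not differ beyond their spread. The T cell member of the GATA family was higher per length than either erythroid one: Gata3, a T cell lineage factor, had 20.2 ± 1.37 CPM per kb in E1KO and 21.4 ± 1.16 in E1WT, against 7.16 ± 0.599 in E1KO and 4.04 ± 0.387 in E1WT for Gata1. Klf2, which keeps T cells quiescent, had 262 ± 13.9 CPM per kb in E1KO and 202 ± 8.45 in E1WT.

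**Figure D2:**
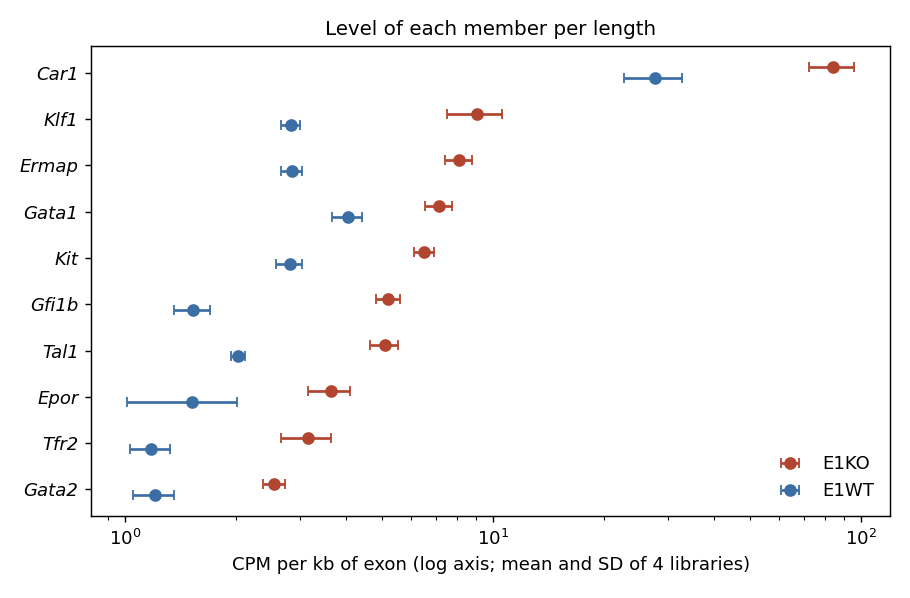
Mean CPM per kb of exon for each member, on a log axis, with SD bars over 4 libraries, E1KO above E1WT in each row. Car1 stands at 84.1 in E1KO and 27.7 in E1WT, and every other member has a mean of 9.04 or less in both.

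Within a title the 10 members did not follow 1 common order of libraries. The 5 members with the longest exons (4336 to 8911 bp: Kit, Gata2, Ermap, Tal1 and Tfr2) were all highest in E1KO 1 among the E1KO libraries. Of the 5 shortest (1248 to 2438 bp: Gata1, Epor, Gfi1b, Klf1 and Car1), 4 were lowest in E1KO 1, and 3 were highest in E1KO 4. In E1KO 1 the median deviation from the title mean was 0.15 for the 5 longer and -0.17 for the 5 shorter members, in log2 of TMM-scaled CPM. Genes in general deviated the same way there, with a median of 0.05 for the 6396 tested genes of at least 4336 bp and -0.14 for the 2725 of at most 2438 bp. In E1WT 4, 4 of the 5 shorter members were lowest of their title, with a median deviation of -0.19, and genes of that length had a median of -0.15. The part of exon length in these orders was not tested. With E1KO 1 and E1WT 4 both left out, the median log2 ratio of the 10 members was 1.28.

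**Figure D3:**
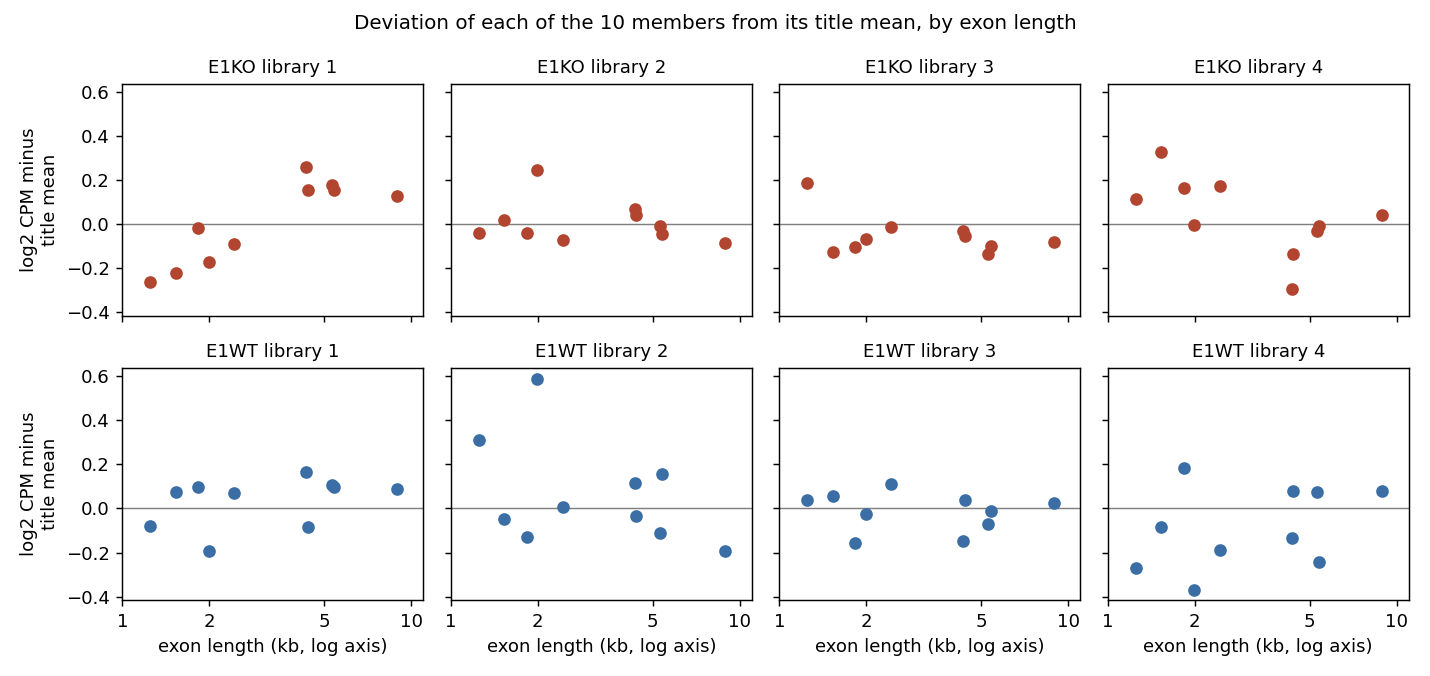
Log2 CPM of each of the 10 members minus its mean over the 4 libraries of the same title, against exon length on a log axis, with 1 panel per library and E1KO in the upper row. In E1KO library 1 all 5 members over 4 kb lie above 0 and all 5 under 3 kb lie below it.

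The genes most like the members within titles were sought among 11714 others with a mean of at least 1 CPM, by Pearson correlation of deviations from the title mean with the members' average deviation over 8 libraries. That average mixes the patterns of long and short members, and libraries share their depth and composition. The 10 most alike were Jup, Wdr12, Wfikkn1, Pddc1, Hsd17b4, Arc, Abcb9, Otub1, Cul9 and Dlgap5, with correlations of 0.99 to 0.93, as a description over 8 points. None of them is in a fixed list. Between the titles Jup, the junction protein plakoglobin, was 18.2 CPM in E1KO and 9.64 CPM in E1WT on average (log2 fold 0.86, edgeR adjusted p = 0.00027). Wfikkn1 and Cul9 were lower in E1KO (log2 fold -1.02 and -0.54, edgeR adjusted p = 0.032 and 0.00016), and the other 7 did not pass the test.

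Other genes of the red cell pathway were tested with edgeR over all genes, where 12.2% were called higher and 11.1% lower in E1KO at an adjusted p under 0.05. The lists were written with earlier results of these data known, so their counts are a description and no independent support. Of 11 genes typical of erythroid progenitors 10 rose and 0 fell, with a median log2 fold of 1.20. On that scale the 10 members had a median of 1.30, from 0.77 to 1.70, and all tested genes 0.01. Ces2g, a carboxylesterase, averaged 36.1 ± 1.33 CPM in E1KO and 9.74 ± 1.21 CPM in E1WT (log2 fold 1.83 ± 0.10, SE; edgeR adjusted p = 8.05e-07). Mfsd2b, which exports sphingosine-1-phosphate from red cells, had 32.0 ± 0.475 CPM in E1KO and 13.8 ± 0.503 CPM in E1WT, and Car2, carbonic anhydrase 2, had 68.5 ± 5.39 CPM in E1KO and 28.6 ± 4.06 CPM in E1WT. Their log2 folds were 1.15 ± 0.07 and 1.20 ± 0.10. Add2, the beta subunit of the membrane skeleton protein adducin, rose by 1.49 ± 0.13.

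Genes of late red cell formation were mixed. Of 27 in the files 21 were tested, 10 rose and 0 fell, with a median log2 fold of 0.71. Aqp1, the aquaporin of the red cell membrane, averaged 53.6 ± 2.09 CPM in E1KO and 17.6 ± 1.90 CPM in E1WT (log2 fold 1.55 ± 0.08). Ank1, the ankyrin that ties the skeleton to the membrane, rose by 1.37 ± 0.14. The Rh complex genes Rhag and Rhd rose by 1.85 ± 0.23 and 1.14 ± 0.13. Alas2, the erythroid enzyme that starts haem synthesis, had 1.15 ± 0.591 CPM in E1KO and 1.87 ± 0.290 CPM in E1WT (edgeR adjusted p = 0.15). It was named after its values were seen. The 6 adult globin symbols are listed at 0 in every library. Reads that align to several places were given a row of their own by the counting, and adult globins have near-identical copies, so those zeros do not show that globin RNA was missing.

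Haem synthesis genes, which all cells use, rose in 5 of 11 cases with 0 falling (median log2 fold 0.28). Among those that rose were Cpox (0.57 ± 0.06) and Alad (0.58 ± 0.10), enzymes of the pathway, and the mitochondrial transporter Abcb10 (0.50 ± 0.11). In the iron list 3 of 9 rose and 0 fell. Steap3, the endosomal ferrireductase, averaged 18.0 ± 0.643 CPM in E1KO and 6.05 ± 0.871 CPM in E1WT. Tfrc, the transferrin receptor of dividing cells, had 59.2 ± 2.15 CPM in E1KO and 39.7 ± 1.70 CPM in E1WT. The smaller rise of Aco1, iron regulatory protein 1 (0.24 ± 0.06), lost its call without E1KO 4 or E1WT 1 (edgeR adjusted p = 0.063 and 0.054) and without E1KO 1 and E1WT 4 together (0.054).

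Partners of the erythroid factors rose in 9 of 21 cases and fell in 0 (median log2 fold 0.20). Lmo2, the bridge of the TAL1 and GATA1 complex, averaged 25.6 ± 3.50 CPM in E1KO and 12.98 ± 0.873 CPM in E1WT (log2 fold 0.92 ± 0.10). Nfe2, a globin gene activator, rose by 1.28 ± 0.14, the corepressor Cbfa2t3 by 0.96 ± 0.12 and Myb, a factor of immature blood cells, by 0.58 ± 0.07. Genes of EPOR and KIT signalling rose in 4 of 15 cases and fell in 1 (median 0.04). Those that rose were the kinases Lyn (0.66 ± 0.09) and Pim1 (0.45 ± 0.06), the feedback inhibitor Cish (0.87 ± 0.13) and the survival gene Bcl2l1 (0.48 ± 0.07). The gene that fell was Socs3, another feedback inhibitor (-0.34 ± 0.07, edgeR adjusted p = 0.0055; named after its values were seen). Of the ligands 3 of 7 passed the filter and none was called by edgeR, with 1 of the 3, Trf, at an unadjusted p under 0.05 and 0 called by DESeq2. Epo, encoding erythropoietin, had 0 counts in every library, which allows up to 0.082 to 0.106 CPM per library at a floor of 3 counts. Among family relatives 7 of 11 tested rose and 0 fell, with Klf2 at 0.31 ± 0.05 and Csf1r, a receptor related to KIT, at 0.93 ± 0.13. Lists overlap, and of these 7 Tfrc, Car2, Lyl1, Flt3 and Csf1r are counted in other lists as well. Gata3 was not among the relatives that rose (log2 fold -0.14 ± 0.07, edgeR adjusted p = 0.15; named after its values were seen).

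**Figure D4:**
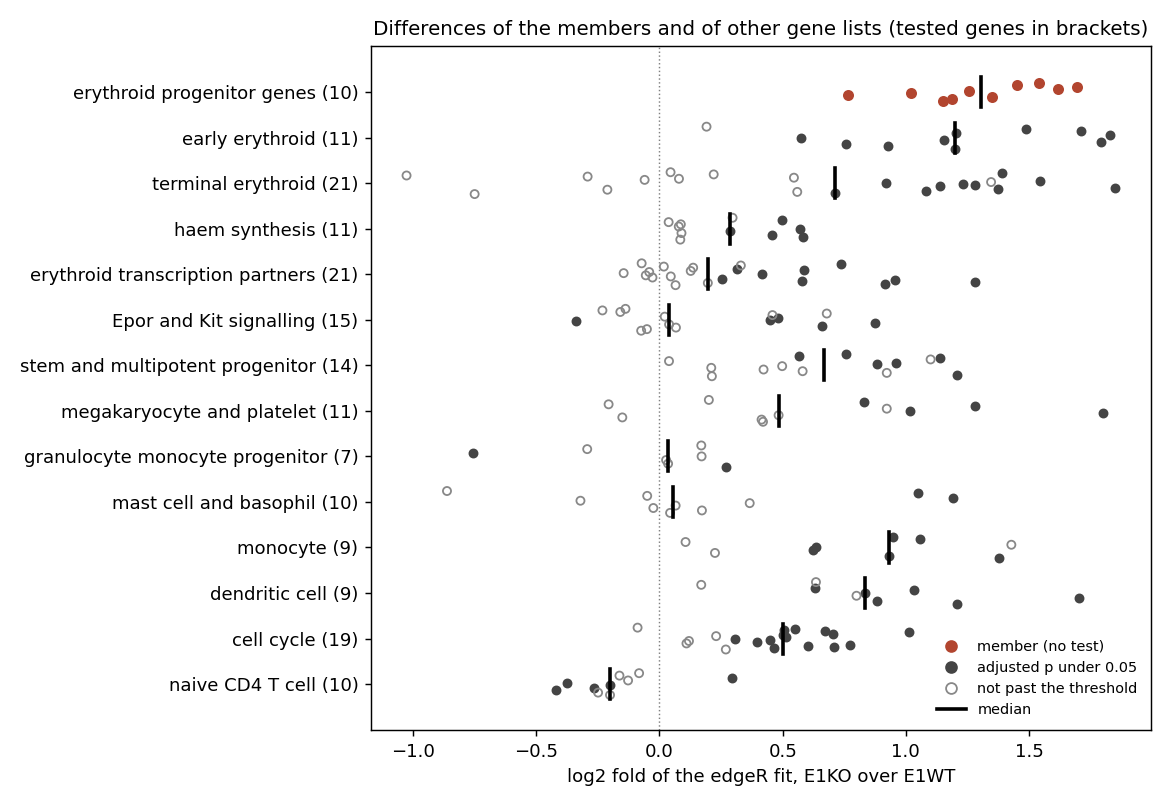
Log2 fold of the edgeR fit, E1KO over E1WT, of each member (red, no test) and of each tested gene of 13 other lists (filled grey where the adjusted p was under 0.05, open otherwise), with a black bar at each median. The early erythroid median of 1.20 is close to the members' 1.30. The monocyte and dendritic cell medians lie at 0.93 and 0.84, and the late erythroid median at 0.71. Those of the mast cell and basophil list and the granulocyte monocyte progenitor list lie at 0.05 and 0.04.

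Kit and Gata2 are also genes of stem cells and mast cells. Stem and multipotent progenitor genes rose in 6 of 14 tested cases with 0 falling (median log2 fold 0.67), and 5 more were under the filter. Flt3, a receptor of lymphoid and dendritic progenitors, rose by 1.21 ± 0.22, Angpt1 by 0.96 ± 0.12 and Hlf, a transcription factor of stem cells, by 0.88 ± 0.21. Cd34, a surface marker of progenitors, was 3.05 ± 0.298 CPM in E1KO and 2.53 ± 0.885 CPM in E1WT (edgeR adjusted p = 0.55; named after its values were seen). Mast cell and basophil genes had a median of 0.05, with 2 of 10 tested rising and 0 falling. The 2 were Il1rl1, the interleukin-33 receptor, and Csf2rb2, a cytokine receptor chain, which other cells share. The granule gene Cpa3 stood at 4.16 ± 0.572 CPM in E1KO and 3.54 ± 0.555 CPM in E1WT. The granule gene Mcpt8 stood at 1.43 ± 0.405 CPM in E1KO and 1.41 ± 0.443 CPM in E1WT. Of the 4 genes under the filter, Fcer1a averaged 0.258 ± 0.165 CPM in E1KO and 0.0518 ± 0.0363 CPM in E1WT, without overlap. Tpsb2 went the other way, at 0 CPM in E1KO and 0.0939 ± 0.0391 CPM in E1WT. The tryptase gene Tpsab1 is listed at 0 in every library, but reads aligning to several places were kept in a row of their own. Cpa3, Mcpt8 and the genes under the filter were named after their values were seen. Platelet lineage genes rose in 4 of 11 tested cases, 2 without E1KO 4, and 8 were under the filter. The 4 were Nfe2, which red cell precursors share, Gp5, a platelet glycoprotein (1.80 ± 0.29), Vwf (1.02 ± 0.26) and Rgs18 (0.83 ± 0.24). Vwf lost its call without E1KO 4 (edgeR adjusted p = 0.055). Rgs18 lost its call without E1KO 2, E1KO 3, E1KO 4, E1WT 2 or E1WT 3 (edgeR adjusted p = 0.050 to 0.071). The platelet factor Pf4 was 0.613 ± 0.104 CPM in E1KO and 0.442 ± 0.138 CPM in E1WT. Its log2 fold was 0.42 ± 0.37 (edgeR adjusted p = 0.44; named after its values were seen). Granulocyte and monocyte progenitor genes were split, with Mpo higher (0.27 ± 0.08) and Cebpa lower (-0.76 ± 0.10) of 7 tested. Mpo lost its call without E1KO 1, E1KO 4, E1WT 1 or E1WT 3 (edgeR adjusted p = 0.072 to 0.098).

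Markers of other cells and of division moved in the same libraries, and their part in the members' difference was not tested. Monocyte markers rose in 6 of 9 cases and summed to 147 to 175 CPM in E1KO and 71.3 to 82.8 CPM in E1WT. Dendritic cell markers rose in 6 of 9 cases and summed to 168 to 184 CPM in E1KO and 122 to 146 CPM in E1WT. For NK cells 5 of 8 tested rose and the sums were 126 to 150 CPM in E1KO and 79.9 to 94.7 CPM in E1WT. Red pulp macrophage markers rose in 3 of 9 tested cases and fell in 1, summing to 44.4 to 46.6 CPM in E1KO and 29.7 to 31.3 CPM in E1WT. The iron exporter gene Slc40a1, which other cells also use, averaged 6.08 ± 1.11 CPM in E1KO and 2.75 ± 0.235 CPM in E1WT (log2 fold 1.08 ± 0.16, edgeR adjusted p = 0.00067). The receptor kinase gene Axl averaged 26.4 ± 0.515 CPM in E1KO and 16.0 ± 1.38 CPM in E1WT (edgeR adjusted p = 0.00023). Adgre1, which encodes the macrophage marker F4/80, averaged 1.79 ± 0.245 CPM in E1KO and 0.903 ± 0.196 CPM in E1WT (edgeR adjusted p = 0.023), and lost its call without E1KO 2, E1KO 4 or E1WT 4 (edgeR adjusted p = 0.055 to 0.074). The complement gene C1qb fell, at 0 to 0.0649 CPM in E1KO and 0.353 to 0.637 CPM in E1WT (edgeR adjusted p = 0.0016). The defining genes Spic and Cd5l, named after their values were seen, were near 0: Spic averaged 0.200 CPM in E1KO and 0.118 CPM in E1WT, and Cd5l 0.176 CPM in both. Cell cycle genes rose in 14 of 19 cases with 0 falling and summed to 1526 to 1578 CPM in E1KO and 1137 to 1184 CPM in E1WT.

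Naive CD4 T cell genes fell in 4 of 10 cases and rose in 1, and summed to 6257 to 6531 CPM in E1KO and 6802 to 7059 CPM in E1WT. Innate lymphoid genes rose in 3 of 8 tested cases and plasma cell genes in 1 of 7 (2 without E1WT 2), with sums of 67.0 to 78.6 and 848 to 1058 CPM in E1KO and 57.6 to 70.1 and 555 to 776 CPM in E1WT. B cell genes rose in 2 of 8 and fell in 1, and only 1 rose without E1KO 3, E1KO 4, E1WT 1, E1WT 3 or E1WT 4. Their sums were 231 to 250 CPM in E1KO and 207 to 242 CPM in E1WT. Early thymocyte genes rose in 2 of 8 tested cases and fell in 1, with 0 rising without E1KO 4 or E1WT 3 and 1 rising without E1KO 1, E1KO 2, E1WT 2 or E1WT 4. The 2 that rose were Rag1 (log2 fold 1.53 ± 0.45) and Hes1 (0.88 ± 0.25), and Cd8a fell (-0.46 ± 0.11). Early thymocyte genes summed to 546 to 609 CPM in E1KO and 537 to 663 CPM in E1WT. Most of these sums came from Notch1 (359 CPM in E1KO, 387 CPM in E1WT) and Tcf12 (176 CPM in E1KO, 172 CPM in E1WT). Notch1 and Tcf12 were named after their values were seen. Neutrophil genes fell in 3 of 8 cases, 1 without E1KO 2, E1KO 3, E1WT 1 or E1WT 3, and summed to 16.0 to 17.9 CPM in E1KO and 20.1 to 21.9 CPM in E1WT. Of 5 eosinophil genes tested edgeR called 0, with 0 at an unadjusted p under 0.05 and 0 by DESeq2, and 1 rose without E1KO 1 or without E1WT 2. Among lists with 0 falling by edgeR, 1 gene was lower at an unadjusted p under 0.05 in the late erythroid, iron, mast cell and innate lymphoid lists and none in the others, and DESeq2 called 1 lower in the late erythroid, mast cell and innate lymphoid lists. All 5 genes of the sex list were called, Xist higher and the 4 Y-linked genes lower in E1KO.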

How the data were processed

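The authors deposited raw read counts per gene symbol and library, which were used as they stand. Per the submitters' processing notes, the tools were TopHat2 2.1.0 and HTSeq 0.9.1 and the build mm10. For annotation and strand setting, nothing is stated in the labels. The 5 rows that name no gene, 28.2% to 37.0% of a file, were left out. CPM is the count over all gene counts of a library, with no other scaling. Libraries were grouped by title. The labels do not say whether each library is a separate animal or a pool. Every E1KO library held both Xist and Ddx3y RNA, as a mix of sexes would, and whether libraries were pools was not tested. SDs, standard errors and p-values therefore rest on the spread of libraries, which may be technical, and not on a known spread between animals. Within a title, counts of any pair of libraries varied more than sampling gives (chi-square per degree of freedom 4.20 to 64.4).

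The test over genes was that of edgeR 4.0.16 (R 4.3.3): TMM scaling, default filter (minimum count 10, total 15), quasi-likelihood test, Benjamini-Hochberg adjustment at 0.05, 13333 genes. Deviations from title means used edgeR's TMM-scaled log2 CPM with a prior count of 2; the members' ratios used CPM with nothing added. Standard errors of members come from unscaled log2 CPM over 4 libraries a title. Those of list genes are the absolute edgeR log2 fold divided by the square root of its F statistic. These kinds of standard error are not directly comparable. Floors cover counting error only, while SDs and standard errors also hold the spread between libraries. Exon lengths and positions are from GENCODE M21 (GRCm38), sequences from RefSeq (GRCm38.p6). Members and all 25 gene lists were chosen with earlier results of these data known. Named genes are the members, up to 4 called genes of a list with the smallest p (or the 2 smallest), and the 10 most alike; others are marked as named after their values were seen. Some genes that the rule would name are not reported here. Alternatives were DESeq2 1.42.0 and its size factors, other filters, TMM-scaled CPM, a pseudocount of 0.05 CPM, the replicate number as a block and left-out libraries.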

Additional observations from a re-analysis of the deposited data

How the results depend on the processing

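All 10 members were without overlap also under TMM scaling and DESeq2 size factors. The median log2 ratio was 1.30 with TMM-scaled CPM, 1.29 with DESeq2 size factors, 1.28 without E1KO 1 and E1WT 4, and 1.32 to 1.47 with 1 library left out. Single members ranged most for Epor, from 1.13 without E1WT 4 to 1.51 without E1WT 2. Calls over all genes were 1194 to 1659 higher and 1010 to 1566 lower with 1 library left out, 1777 and 1817 with DESeq2.

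With 1 library left out, the counts ran as follows: late erythroid genes lower 0 to 2, iron genes lower 0 to 1, granulocyte and monocyte progenitor genes higher 0 to 1, platelet genes higher 2 to 4, mast cell and basophil genes lower 0 to 1, eosinophil genes higher 0 to 1, early thymocyte genes higher 0 to 2 and lower 1 to 2, innate lymphoid genes lower 0 to 1, B cell genes higher 1 to 2, plasma cell genes higher 1 to 2 and neutrophil genes lower 1 to 2. Late erythroid genes had 1 lower with no filter, with DESeq2, and without E1KO 1 and E1WT 4 together. Leaving out that pair gave early thymocyte 0 higher, innate lymphoid 1 lower and B cell 1 higher. DESeq2 gave 1 lower for mast cells and for innate lymphoid cells. With at least 1 CPM in 4 libraries, 0 red pulp macrophage genes were lower and 1 early thymocyte gene was higher.

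The replicate numbers are shared by the titles. Deviations over all tested genes correlated at -0.10 to 0.01 between same-numbered libraries and at -0.32 to 0.26 between the others. No pairing by number was seen, but the larger patterns across numbers could hide one, so it is not excluded. With the replicate block 1151 genes were higher and 1005 lower, and the block gave 0 progenitor genes of the granulocyte and monocyte list, 1 early thymocyte gene and 1 B cell gene higher. Among named list genes Aco1, Mpo, Rgs18, Adgre1, Hes1 and Blk lost their calls with the block (edgeR adjusted p = 0.058 to 0.073). The causes of these changes were not tested. No result of the 1103 repeats of named list genes changed sign, and 53 lost their call.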
